A study of Rattus norvegicus with 3 samples.

Results

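The genes described here encode proteins that write, read or erase N6-methyladenosine (m6A), a methyl mark on adenosines inside RNA. The 10 genes were taken by symbol from the 29684 genes of the deposited table: Zc3h13, Mettl3, Mettl14, Wtap, Virma, Rbm15, Ythdf2, Ythdc1, Alkbh5 and Fto. They were chosen with their levels known, and Zc3h13 was singled out for its high level, so all levels below are descriptions and no test was run on them. RNA came from extracellular vesicles, small particles wrapped in membrane that cells shed, harvested from the culture supernatant of wild type adipose-derived mesenchymal stem cells from the inguinal region of rats. These are stromal cells that can form fat, bone and cartilage cells, and the study looked for vesicle RNAs that could be active against premature ovarian insufficiency. The 3 libraries, replicates 1 to 3, form 1 group with no treated or control arm, each from a batch of vesicles. Nothing in the labels ties the batches to separate animals or cultures, so the spread between them may be technical.

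The m6A mark is placed mainly in the nucleus by a writer complex. METTL3 is the catalytic subunit, METTL14 its partner in RNA binding, and a set of regulatory subunits (WTAP, VIRMA, RBM15, CBLL1 and ZC3H13) holds the complex in nuclear speckles and guides it to its sites. Proteins with a YTH domain bind the mark, YTHDC1 in the nucleus and the YTHDF proteins in the cytoplasm, where YTHDF2 promotes decay of the bound RNA. FTO and ALKBH5 are demethylases that remove it. The measurements here are of the mRNAs of these proteins in vesicles, and the m6A mark itself was not measured.

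Levels are the authors' FPKM, which scale reads to gene length and to the library's total, and are given as mean ± SD over the 3 libraries. The table's counts summed to between 5219920 and 6786182 per library. As a background for vesicle RNA, the 1420 olfactory and vomeronasal receptor genes were used, which encode chemosensory receptors of the nose. Their median was 2.95, 2.34 and 2.60 FPKM in replicates 1, 2 and 3, and their 99th percentile was 15.9, 13.1 and 14.9. A gene is called here when it lies above that 99th percentile in every library; 3.5% of all genes, 3.21% of the 22745 nuclear protein-coding genes and 0.211% of the receptor genes were called. More vesicles carrying an RNA and more RNA per vesicle cannot be told apart in such libraries. Of the markers of the source cells, 4 of 7 mesenchymal matrix and cytoskeleton genes were called. These were Vim at 172 ± 63.0, Sparc at 40.6 ± 12.5, Col1a1 at 33.4 ± 7.69 and Tagln. Of the 7 mesenchymal surface markers 0 were called, led by Itgb1 at 17.4 ± 4.02, Thy1 at 7.49 ± 1.28 and Cd44 at 6.26 ± 0.140. Of the 6 haematopoietic markers used 0 were called, with Cd3e, Itgam and Cd14 at 6.97, 5.91 and 5.48 FPKM, and of the 5 endothelial markers 0 were, with Cdh5, Vwf and Pecam1 highest at 10.9, 9.51 and 8.92. Of the 6 vesicle markers 1 was called, Cd63 at 19.4 ± 3.09, followed by Flot1 at 9.45 and Cd9 at 6.07. Itgb1 was above every haematopoietic and endothelial marker in each library, while the other 6 surface markers had means of 1.65 to 7.49 FPKM.

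Zc3h13 stood far above every other member of the m6A machinery. Zc3h13 (ENSRNOG00000011237, mRatBN7.2, chromosome 15, 50607380 to 50671802, plus strand) encodes the zinc finger subunit that anchors the writer complex in the nucleus. Its level was 321 FPKM in replicate 1, 671 in replicate 2 and 550.1 in replicate 3, from 15892, 39913 and 32839 counts. The mean was 514 ± 177 (SD, n = 3), and replicate 1 was the lowest library. Zc3h13 ranked at place 11 of the 22745 nuclear protein-coding genes by mean FPKM and between places 10 and 13 in single libraries. Its level was 202 ± 89.3 times that of the median receptor gene. Of all counts in the table it took 0.304% in replicate 1 (Wilson 95% interval 0.300 to 0.309), 0.588% in replicate 2 (0.582 to 0.594) and 0.496% in replicate 3 (0.491 to 0.502). These intervals do not overlap, so the libraries differed by more than counting error, and the intervals cover counting error only.

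**Figure D1:**
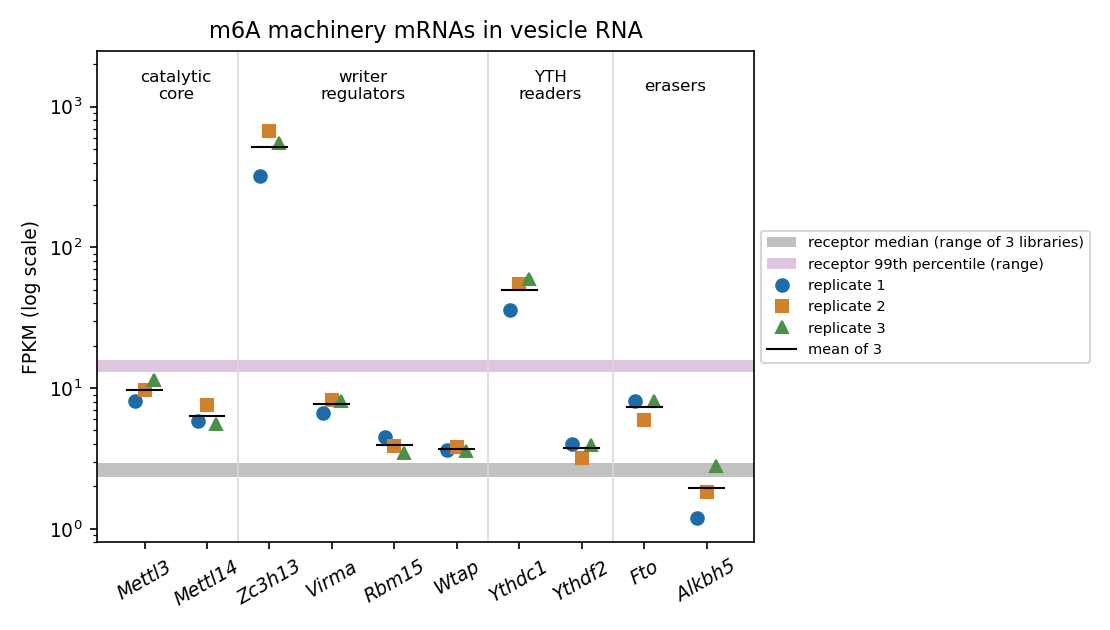
FPKM on a log scale of the 10 m6A machinery genes in each of the 3 libraries (points, with the mean as a line), grouped by role. The grey band spans the median receptor gene over the 3 libraries and the purple band the 99th percentile of the receptor genes; Zc3h13 and Ythdc1 lie above the purple band in every library and the other 8 genes below it.

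The reader gene Ythdc1 was the second highest member and the other 8 lay at 1.95 to 9.73 FPKM. At the call threshold 2 of the 10 members were called, Zc3h13 and Ythdc1. The levels chose the members, so this count is not read against the 3.21% of coding genes. All 10 members reached 1 FPKM in every library, as did 83.7% of all genes, 90.4% of nuclear protein-coding genes and 69% of the receptor genes, so a value of that size does not tell a gene from the background.

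The catalytic pair lay above the median coding gene and under the call threshold. Mettl3 (ENSRNOG00000013111, chromosome 15, 25003172 to 25014041, minus strand) had 8.15, 9.66 and 11.4 FPKM in replicates 1, 2 and 3, from 128, 183 and 216 counts, with a mean of 9.73 ± 1.62. In FPKM only Zc3h13 and Ythdc1 were above it among the members in each library. Its level was at percentiles 90.4, 96.9 and 97.3 of the receptor genes. Its partner Mettl14 (ENSRNOG00000015250, chromosome 2, 211530602 to 211546704, minus strand) had 5.87, 7.56 and 5.55 FPKM, a mean of 6.33 ± 1.08, at percentiles 81.0, 94.2 and 82.9. Mettl3 was higher than Mettl14 in FPKM in each library, with a ratio of 1.57 ± 0.417, and their FPKM ranges did not overlap. Mettl14 had 135, 209 and 154 counts, more than Mettl3 in replicates 1 and 2. In those 2 libraries the order therefore rests on the gene lengths used, with implied lengths of 1971 nt for Mettl3 and 2880 nt for Mettl14. Zc3h13 exceeded Mettl3 by 39.5, 69.5 and 48.3 times in the 3 libraries and Mettl14 by 54.7, 88.7 and 99.1 times.

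Among the regulatory subunits, the 3 other members were close to the catalytic pair or lower in FPKM. Virma (ENSRNOG00000014664, chromosome 5, 24960778 to 25023341, plus strand), the large scaffold subunit that steers methylation toward the ends of mRNAs, had 6.70, 8.26 and 8.09 FPKM, a mean of 7.69 ± 0.855. Rbm15 (ENSRNOG00000047499, chromosome 2, 194945974 to 194954703, minus strand), which binds RNA and recruits the complex, had 4.47, 3.91 and 3.46 FPKM, a mean of 3.95 ± 0.503. Wtap (ENSRNOG00000019091, chromosome 1, 47665965 to 47691065, plus strand), which binds the catalytic pair and brings it to nuclear speckles, had 3.61, 3.83 and 3.59 FPKM, a mean of 3.67 ± 0.134. Wtap had the smallest spread of the 10 members, with an SD of 3.64% of its mean, against 34.5% for Zc3h13. Virma was at percentiles 84.8, 95.6 and 92.3 of the receptor genes in replicates 1, 2 and 3. Rbm15 and Wtap lay between percentiles 59.6 and 74.6 of the receptor genes, inside the background. Zc3h13 exceeded Virma 65.7 ± 16.7 times, Rbm15 134 ± 54.2 times and Wtap 139 ± 44.7 times. On the log2(FPKM + 1) scale Zc3h13 lay 6.18 ± 0.56 above the median of the other 9 members, and above each of them in 3 of 3 libraries. The 8 writer subunits (the 6 members named above with Rbm15b and Cbll1) were unequal in FPKM. Zc3h13 held 89.4%, 94.4% and 93.6% of their summed FPKM in the 3 libraries. Zc3h13 was singled out for its high level, so this share is a description only. The sum also holds subunits inside the background: Rbm15, Wtap and Cbll1, the last at percentiles 58.0, 50.8 and 42.0 of the receptor genes.

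The YTH readers were split in the same way, between Ythdc1 and the others. Ythdc1 (ENSRNOG00000001996, chromosome 14, 21185440 to 21216028, minus strand), the nuclear reader that acts in splicing and export, had 36.1, 54.8 and 59.5 FPKM, from 1205, 2199 and 2397 counts. Its mean was 50.1 ± 12.4, place 255 among nuclear protein-coding genes, and replicate 1 was again lowest. Ythdf2 (ENSRNOG00000010892, chromosome 5, 144381431 to 144408144, minus strand) had 4.02, 3.20 and 3.95 FPKM, a mean of 3.72 ± 0.455, from 268, 256 and 318 counts. At percentiles 64.5, 65.4 and 70.1 of the receptor genes Ythdf2 lay inside the background. The ratio of Ythdc1 to Ythdf2 was 8.96, 17.1 and 15.1, with a denominator at that background level. Zc3h13 exceeded Ythdc1 8.92, 12.3 and 9.25 times, a gap of 3.30 ± 0.25 on the log2(FPKM + 1) scale, and the 2 genes' ranges did not overlap.

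Both erasers lay under the call threshold. Fto (ENSRNOG00000011728, chromosome 19, 15349696 to 15692083, minus strand) had 8.10, 5.89 and 8.13 FPKM, a mean of 7.37 ± 1.28. Its level was at percentiles 90.2, 89.5 and 92.4 of the receptor genes. Alkbh5 (ENSRNOG00000028341, chromosome 10, 45343395 to 45366331, plus strand) had 1.20, 1.83 and 2.81 FPKM, a mean of 1.95 ± 0.812, and was the lowest member in each library. Its 32, 58 and 88 counts were also the fewest, and at percentiles 16.5, 41.1 and 53.9 of the receptor genes it could not be told from the background. Fto was higher than Alkbh5 in each library, 6.74, 3.22 and 2.89 times.

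In the order of mean FPKM, the ranges of some neighbours overlapped and those of others did not. From high to low the order was Zc3h13, Ythdc1, Mettl3, Virma, Fto, Mettl14, Rbm15, Ythdf2, Wtap and Alkbh5. The FPKM ranges of Zc3h13 and Ythdc1 did not overlap, nor did those of Ythdc1 and Mettl3, of Mettl14 and Rbm15, or of Wtap and Alkbh5. The ranges of the other 5 neighbouring pairs overlapped, and Virma was above Fto in 1 of 3 libraries. The genes were sorted by these same levels and the spread between libraries may be technical, so overlap is given as a description only. Below Ythdc1 the order also depends on the gene lengths used. Rbm15 had 173, 182 and 162 counts in replicates 1, 2 and 3, beside 135, 209 and 154 for Mettl14. Virma had 327, 485 and 476 counts, beside 128, 183 and 216 for Mettl3. The median of the 9 members other than Zc3h13 was 5.77 ± 0.191 FPKM, beside 4.83 ± 0.380 for all nuclear protein-coding genes. That is a difference of 0.22 ± 0.10 on the log2(FPKM + 1) scale. Apart from Zc3h13 and Ythdc1, the members therefore spanned the range of ordinary coding genes, from place 2533 for Mettl3 to place 20388 for Alkbh5.

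**Figure D2:**
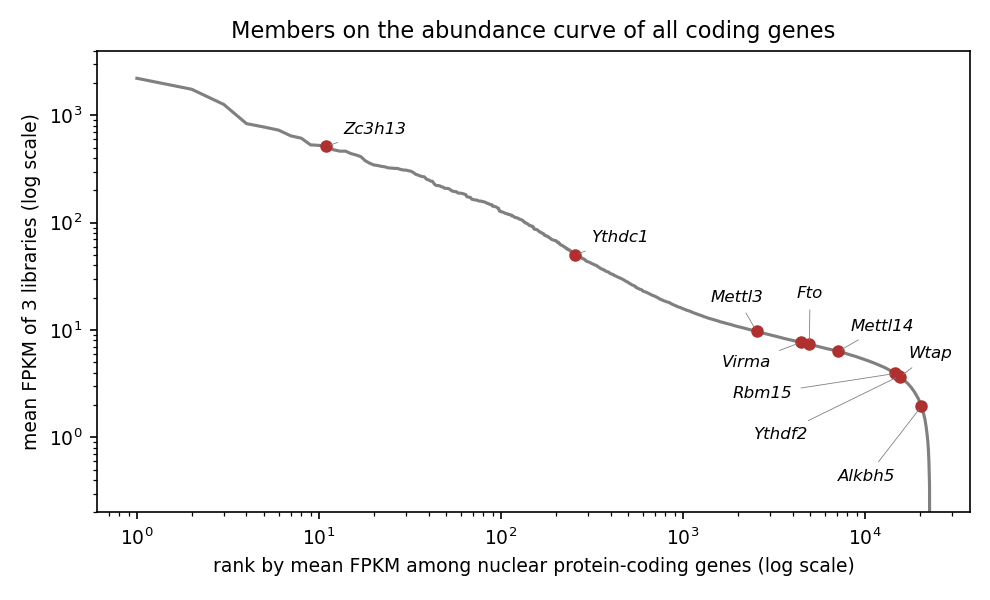
Mean FPKM of all 22745 nuclear protein-coding genes against their rank, both on log scales, as a grey curve that is cut below 0.2 FPKM, with the 10 members as red points. Zc3h13 is at place 11 and Ythdc1 at place 255, while the other 8 members lie between places 2533 and 20388.

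The wider m6A pathway lay mostly at the level of ordinary coding genes. Of 33 symbols looked for, among them the members, other methyltransferases, other reported m6A binders and genes of methyl donor supply, 31 had values. The call rule was met by 3 of the 31, among them Zc3h13 and Ythdc1, which were chosen with their levels known. Of the 21 that are not members 1 was called (4.76%, beside 3.21% of coding genes), Hnrnpa2b1. This gene, an RNA-binding protein also described as an m6A reader and known for sorting small RNAs into exosomes, had 77.8, 141 and 115 FPKM, a mean of 111 ± 31.9. Zc3h13 was 4.56 ± 0.369 times higher than Hnrnpa2b1, and their ratio was 4.13, 4.75 and 4.80 in the 3 libraries. The median of the 31 genes was 4.92 ± 0.494 FPKM, beside 4.83 ± 0.380 for nuclear protein-coding genes.

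By role, the remaining genes of the pathway were not called. The writer regulators Rbm15b, a paralog of Rbm15, and Cbll1, the subunit also called Hakai, had 4.59 ± 1.04 and 2.68 ± 0.699 FPKM. The 5 other methyltransferases had means of 1.88 to 6.33 FPKM, with Mettl16, which methylates the U6 small nuclear RNA, at 6.33 ± 0.790. Of the YTH genes, Ythdf1 had 4.36 ± 1.34, Ythdf3 1.49 ± 0.312 and Ythdc2 0.791 ± 0.294 FPKM. The 3 YTHDF genes, which encode closely related cytoplasmic readers, therefore all lay between 1.49 and 4.36 FPKM. Ythdf3 and Ythdc2 did not exceed percentile 34.2 of the receptor genes in any library, inside the background. Igf2bp2, a binder that stabilises its target mRNAs, had 10.6 ± 0.660, and its paralog Igf2bp3 had 4.43 ± 0.630. The third paralog, Igf2bp1, had 7.51 FPKM in replicate 1 against 3.97 and 4.55 in replicates 2 and 3. Ahcy, which removes the by-product of methylation, had 10.6 ± 3.26 FPKM, and Mat2a, which makes the methyl donor, 3.46 ± 0.353.

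**Figure D3:**
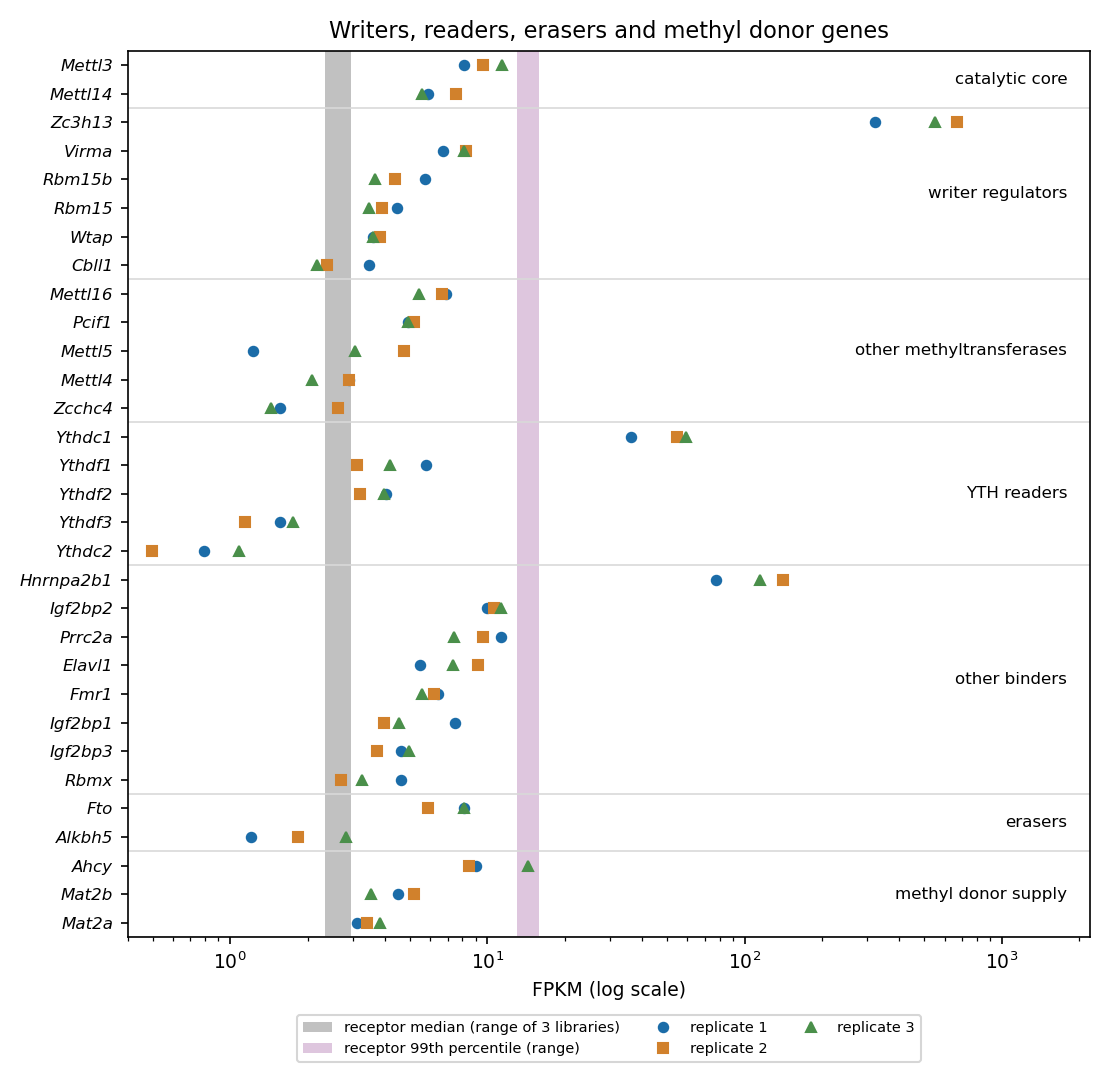
FPKM on a log scale of the 31 measured genes of the m6A pathway in each library, grouped by role, with the receptor median (grey) and 99th percentile (purple) as bands. Zc3h13, Ythdc1 and Hnrnpa2b1 lie to the right of the purple band in all 3 libraries.

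Zc3h13 was the highest of its gene family and of the coding genes near it on the chromosome. It was chosen for its high level, so this order is not a separate finding. CCCH zinc finger proteins bind RNA through a finger built on cysteines and a histidine, and 15 genes of the table carry a Zc3h symbol followed by a number. Besides Zc3h13, 2 of the 14 others were called (14.3%, beside 3.21% of coding genes). Zc3h15 had 22.9, 48.0 and 50.9 FPKM, a mean of 40.6 ± 15.4. Zc3h10 had 18.9, 26.9 and 31.8, a mean of 25.9 ± 6.47. The 14 others had a median of 7.05 ± 0.0154 FPKM and ended with Zc3h6 at 1.85 ± 0.645, so Zc3h13 was above all of them in every library. Within 1000 kb of Zc3h13 lay 18 nuclear protein-coding genes with a median of 4.77 FPKM. The highest of these was Tpt1 at 83.0, named after its value was seen, and it was the only one called. No other gene of the table overlapped Zc3h13 on either strand. Of the other members, Virma and Alkbh5 overlapped annotated genes, which held at most 9 counts in Virma and 44 in Alkbh5; the treatment of strand and of reads with several matches is not given in the sources used here. The deposited GO terms listed 6 genes under the m6A methyltransferase complex (Cbll1, Mettl3, Rbm15, Rbm15b, Virma and Wtap). Neither Zc3h13 nor the core subunit gene Mettl14 was listed there.

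**Figure D4:**
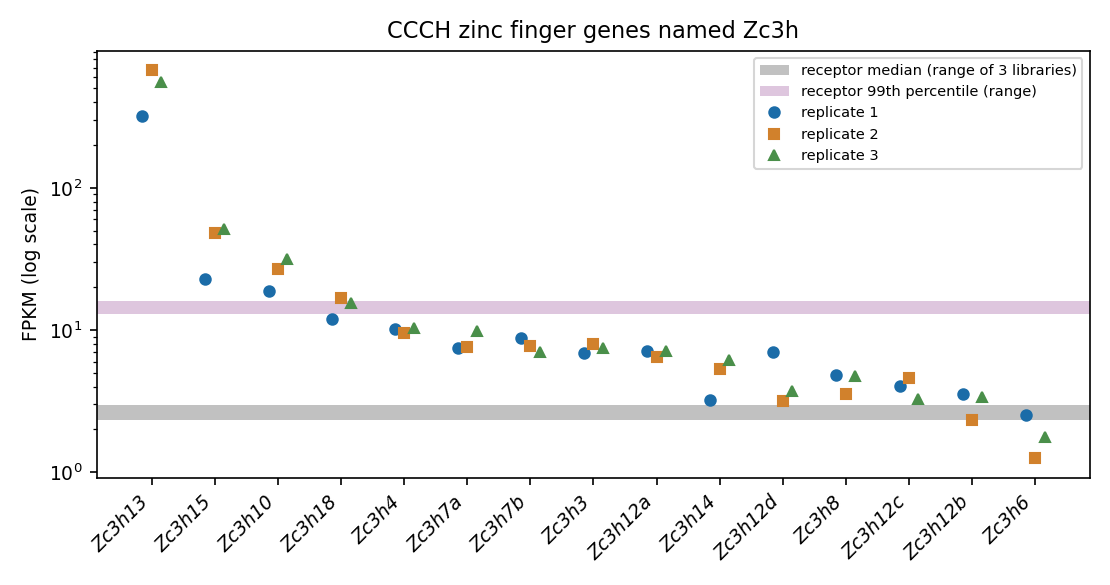
FPKM on a log scale of the 15 genes with a numbered Zc3h symbol in each of the 3 libraries, ordered by mean, with the receptor median (grey band) and 99th percentile (purple band). Zc3h13 is highest in every library, and Zc3h15 and Zc3h10 are the other 2 genes above the purple band in all of them.

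By level over the 3 libraries, the genes most like Zc3h13 were 3 ribosomal protein genes, a ribosomal protein pseudogene and a ferritin gene. Likeness was the Euclidean distance of log2(FPKM + 1) over the 3 libraries, among nuclear protein-coding genes with a symbol. The nearest was Rplp1, a protein of the ribosomal stalk, at a distance of 0.05, with 323, 692 and 561 FPKM. Rpl26 followed at 0.23, Rpl19 at 0.30, Rps27a-ps1 at 0.33 and Fth1, the ferritin heavy chain, at 0.44. Reads of ribosomal protein genes and their processed copies can be shared, so these 4 values are uncertain. With only 3 libraries in 1 group the distance is mostly one of level.

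Replicate 1 was the lowest library for Zc3h13 and Ythdc1 but not for every member. Zc3h13 was 2.09 times higher in replicate 2 and 1.71 times higher in replicate 3 than in replicate 1, and Ythdc1 was 1.52 and 1.65 times higher. Mettl3, Virma and Alkbh5 were also higher in both later libraries, Rbm15 and Ythdf2 were lower in both, and for Wtap, Mettl14 and Fto replicate 1 lay between the other 2. The same difference depended on level over all nuclear protein-coding genes. Of the 135 genes at 100 FPKM or more, 93.3% were higher in both replicates 2 and 3 than in replicate 1, with a median difference of 0.84 on the log2(FPKM + 1) scale and a middle 50% from 0.67 to 0.96. Zc3h13, at 0.92, lay inside that range, and Ythdc1, at 0.65, inside the range of 0.60 to 0.99 for genes at 50 to 100 FPKM. Of the 9320 genes at 2 to 5 FPKM, 21.3% were higher in both libraries and the median difference was -0.15; Rbm15 at -0.22, Ythdf2 at -0.14 and Wtap at 0.03 lay inside the middle 50% of -0.41 to 0.11. Mettl3 at 0.33, Virma at 0.25 and Mettl14 at 0.12 lay above the middle 50% of genes at 5 to 10 FPKM, which was -0.36 to 0.09, and Fto at -0.20 inside it. Alkbh5, at 0.58, lay above the middle 50% of genes under 2 FPKM, -0.50 to 0.25. The receptor median was highest in replicate 1. Whether these differences between libraries come from the vesicle batches or from the library preparation was not tested.

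**Figure D5:**
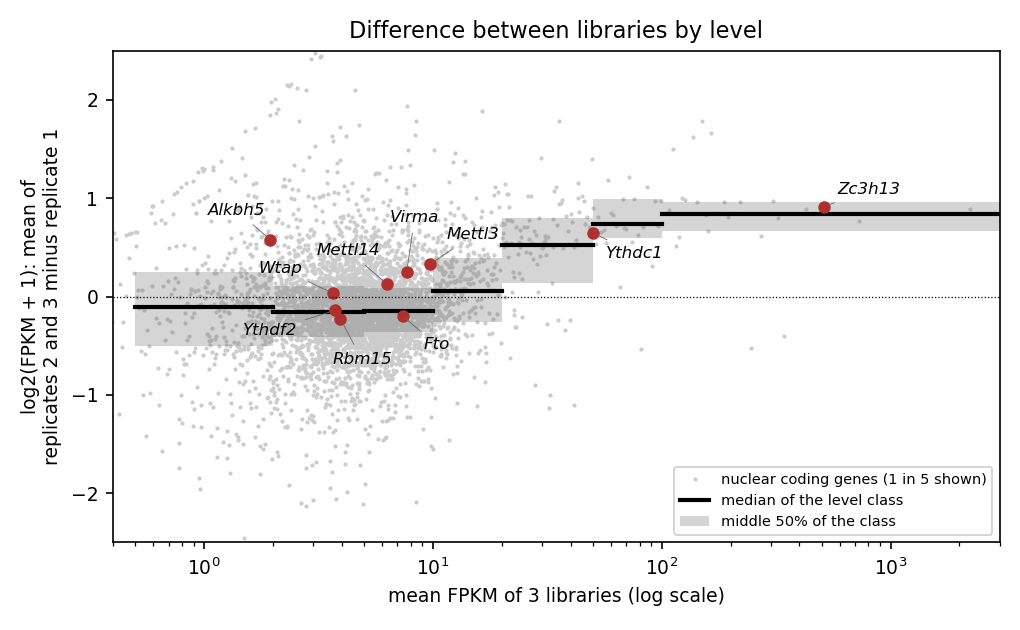
Mean log2(FPKM + 1) of replicates 2 and 3 minus that of replicate 1 against mean FPKM (log scale), for nuclear protein-coding genes (grey, 1 in 5 shown, within 2.5 of 0), with the median (black line) and middle 50% (grey box) of each level class. Zc3h13 at 0.92 and Ythdc1 at 0.65 lie in the boxes of their classes, and the other members lie between -0.22 and 0.58.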

How the data were processed

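Total RNA of vesicles was sequenced as 3 libraries of 1 group, with a stranded kit for low input and removal of ribosomal cDNA, per the labels' protocols. The submitters' processing notes name cutadapt 1.9, FastQC and the build mRatBN7.2. For the aligner and the counter, the sources used here give no name. The deposited counts are whole numbers per gene, and the authors' FPKM divide counts by length and a library total. Implied lengths, from counts and FPKM scaled on mitochondrial coding genes, were 6199 nt for Zc3h13, 1971 nt for Mettl3 and 8351 nt for Ythdf2, so FPKM depend on the lengths used. Receptor genes were taken by symbol, leaving out Olr1, a lipoprotein receptor.

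Means, SD, ranks and within-library differences were computed with numpy 2.4.6 and pandas 2.3.3 (pseudocount 1), with edgeR 4.0.16 and DESeq2 1.42.0 for alternative scaling only. The code for calls and the distance search was checked on simulated data. Receptor and other genes shared the same simulated background, so this does not show how the call rule behaves on the real data. The members, lists and call rule were chosen with earlier results of these data known, so no p-value is given. Named are the members, called genes of the pathway and of the Zc3h family, the 5 genes nearest to Zc3h13 and the 3 highest of each marker list; other genes named were added by role, or as the ends of a range, after their values were seen. Symbols without a row (Trmt112, Hnrnpc and Dkc1) were not analysed here. A further planned marker is not reported here. A planned comparison of protein composition was not run, since no protein sequences were used here.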

Additional observations from a re-analysis of the deposited data

How the results depend on the processing

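Of 34 alternatives, 30 left the result within 1 SD between libraries (counts of genes: within 1.5 times) and 4 moved it, all 4 with CPM, which is not divided by length. With CPM, Zc3h13 lay 7.15 above the median of the other members in place of 6.18 on the log2 scale and ranked at place 5 in place of 11. The other members then lay 0.78 above the median coding gene in place of 0.22, and 5 genes of the wider pathway were called in place of 3, with Virma and Prrc2a added, where 8.05% of coding genes were called. The cause was not tested. The members called with CPM were Zc3h13, Ythdc1 and Virma. At the 95th percentile of receptor genes (7.71% of coding genes called) or at 10 FPKM in every library (6.70%), the same 2 members and 3 pathway genes were called. Leaving out 1 replicate gave a mean of 436 to 610.5 FPKM for Zc3h13, a rank of 10 to 11 and a difference from the other members of 5.97 to 6.50. With TMM, DESeq2's size factors or FPKM rescaled without mitochondrial and structural RNA the mean was 523, 523 and 510.4 FPKM. No paired analysis was possible because there was 1 group. Counts of 32 to 88 limit the precision of Alkbh5.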

Other observations

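Enzymes of other RNA modifications were also mostly at the level of ordinary coding genes. Of 14 measured genes, 1 was called (7.14%, beside 3.21% of coding genes), Fbl, which encodes the nucleolar methyltransferase fibrillarin that methylates ribosomal RNA. Fbl had 37.4, 47.3 and 35.0 FPKM, a mean of 39.9 ± 6.53. The list had a median of 6.55 ± 0.291 FPKM, with the cytosine methyltransferase gene Nsun2 at 9.06 ± 0.559, the adenosine deaminase gene Adar at 6.95 ± 1.43 and the acetyltransferase gene Nat10 at 6.19 ± 0.853.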
